A study of Mus musculus with 6 samples.

Results

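The genes described here handle lipid at the cell surface and inside the cell, and they comprise 10 of the 25683 genes in the deposited table: the lipase Lpl and its inhibitor Angptl4, the lipid receptors Cd36, Olr1 and Ffar4, the fatty acid carrier Fabp4, the droplet coat proteins Plin2 and Plin4, and the transcription factors Pparg and Cebpa. They were matched by symbol, and all 10 were found. They were picked with the difference between knock-out and wild type in these same libraries already known, so their values are given as a description, without a test.

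The 6 RNA libraries came from cultured cells of the mouse aorta, labelled as primary vascular smooth muscle, the contractile cell type of the artery wall. Libraries 1 to 3 were made from Nt5e knock-out cells, and libraries 4 to 6 from Nt5e wild-type cells. Nt5e encodes CD73, which makes adenosine from AMP outside the cell. Both genotypes had been grown at 10% serum and then held for 48 h at 0.5% serum, with no other agent named. The labels do not give the knock-out's construction or the age of the mice. The titles give libraries 1 and 2 one shared name (KO2) and libraries 5 and 6 another (WT11), while library 3 is KO5 and library 4 is WT10. What these names stand for is not stated, so libraries of one name may share a source, n = 3 may count a source more than once, and the spread between libraries may be technical. The titles also end in a number whose meaning is not stated, which is 1 for libraries 1 and 5 and 2 for the other four.

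Fat reaches a cell in several ways. Lipoprotein lipase, the product of Lpl, is secreted and releases fatty acids from triglyceride-rich lipoproteins, and ANGPTL4 inactivates it. CD36 takes up long-chain fatty acids and oxidised lipoproteins, OLR1 (LOX-1) binds oxidised LDL, and FFAR4 (GPR120) is a G protein-coupled receptor that senses long-chain fatty acids. Inside the cell FABP4 carries fatty acids and perilipins such as PLIN2 and PLIN4 coat lipid droplets. PPAR-gamma is a nuclear receptor activated by fatty acid derivatives that binds DNA together with RXR; with C/EBP-alpha it drives adipocyte differentiation, and Lpl, Cd36, Angptl4, Fabp4, Plin2 and Olr1 are among the genes known to respond to it in other cells.

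The libraries held 19919095 to 23669252 exon reads each. Nt5e itself was at 22, 1 and 2 exon reads in the knock-out (in library order here and below) and at 615, 688 and 486 in the wild type, in the direction the labels give. Likeness within a genotype was uneven. The median absolute difference in log2 CPM (reads scaled to library size) over 12660 genes was 0.08 for libraries 2 and 3, both knock-out, and 0.08 for libraries 4 and 6, both wild type, but 0.38 between knock-out library 1 and each of the other knock-out libraries, against 0.32, 0.32 and 0.33 between that library and libraries 6, 4 and 5 of the wild type. The close pairs still differed by more than counting noise, with chi-square per degree of freedom of 3.23 and 3.33. Wild-type library 5 differed by 0.12 and 0.13 from libraries 4 and 6. The library farthest from the others of its genotype, 1 and 5, thus has the title number 1, and the close pairs have different title names. Library 1 is also the only knock-out library with p11 in its title, while in the wild type libraries 4 and 5 both have p11. For the chosen lipid genes, reads are therefore given for each library. For most genes of the wider lists and the markers below, knock-out values are pooled over libraries, with library 1 included. Library 1 can lie apart there in either direction. Acta2 was at 73.8 CPM in library 1 against 546 and 525 CPM in libraries 2 and 3, and Cebpd at 139 CPM against 90.9 and 77.8 CPM. The smooth muscle label was checked against its defining markers: Myocd and Des had at most 4 reads in any library, and Myh11 had 3, 3 and 1 reads in the wild type and 5, 54 and 67 in the knock-out. Some other markers of the list were expressed, with wild-type levels of 74.1 ± 24.9 CPM for Acta2, 67.3 ± 6.14 CPM for Smtn, 29.1 ± 14.5 CPM for Mylk and 17.02 ± 2.17 CPM for Tagln (mean ± SD, n = 3). These genes make up most of the list's wild-type sum, which was 178 to 229 CPM over all 10 markers. Only 7 of the 10 had enough reads to be tested.

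Promoter sequences are shown for the genes that stood lowest and highest in the knock-out cells relative to the wild type. Ffar4 and Olr1 are on one side and Plin4 and Pparg on the other, so that genes with opposite differences can be read side by side. Whether these sequences bear on the differences was not tested. Each stretch comes from RefSeq's promoter table for GRCm38.p6, runs 5′ to 3′ on the gene's strand, and ends at the start site or before the first base that GENCODE M21 places in an exon of the gene. Capitals mark matches to the motifs searched. For Pparg, which has 3 start sites in the table, the one lying farthest along the gene is shown, since exon reads per gene do not tell which start was used.
Ffar4, chr19:38096829-38097070, plus strand: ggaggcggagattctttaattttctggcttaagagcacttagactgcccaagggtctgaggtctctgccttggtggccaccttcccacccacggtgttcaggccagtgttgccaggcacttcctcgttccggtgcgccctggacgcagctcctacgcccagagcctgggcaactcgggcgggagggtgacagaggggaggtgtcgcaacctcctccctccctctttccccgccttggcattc
Olr1, chr6:129507166-129507415, minus strand: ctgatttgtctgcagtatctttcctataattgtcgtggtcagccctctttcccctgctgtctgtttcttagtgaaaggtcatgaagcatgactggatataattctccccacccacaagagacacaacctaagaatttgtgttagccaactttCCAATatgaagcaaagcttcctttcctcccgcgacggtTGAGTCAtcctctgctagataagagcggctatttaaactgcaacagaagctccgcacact
Plin4, chr17:56109804-56110032, minus strand: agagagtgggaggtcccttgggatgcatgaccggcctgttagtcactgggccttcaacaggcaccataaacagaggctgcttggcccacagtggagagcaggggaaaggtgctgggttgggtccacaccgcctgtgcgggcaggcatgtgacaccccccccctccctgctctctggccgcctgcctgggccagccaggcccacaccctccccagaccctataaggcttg
Pparg, chr6:115421816-115422065, plus strand: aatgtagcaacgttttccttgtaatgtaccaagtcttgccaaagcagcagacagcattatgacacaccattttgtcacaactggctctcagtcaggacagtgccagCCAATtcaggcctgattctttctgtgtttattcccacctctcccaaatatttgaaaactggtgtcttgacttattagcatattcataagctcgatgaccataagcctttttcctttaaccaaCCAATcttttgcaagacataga

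The 5 motifs were searched on both strands of the 250 bases before each start: a PPAR response element (AGGNCA repeated directly with 1 base between), the cAMP response element (TGACGTCA), the AP-1 site (TGANTCA), the TATA box (TATAAA) and the CCAAT box (CCAAT). The Olr1 stretch holds a CCAAT box and, closer to the start, the AP-1 match TGAGTCA, a motif found in 6.73% of 32544 promoters of that length. The Pparg stretch holds 2 CCAAT boxes, a motif present in 33.8% of promoters. Another Pparg window, not printed, holds a TATA box and a CCAAT box, both on the other strand. The TATA box occurs in 12.3% of promoters. Ffar4 has none of the 5 motifs in its window, and the one match of Plin4, a CCAAT box on the other strand, lies in the bases not printed. Of the 10 genes, 7 have promoters in the table, with 9 start sites in all. Lpl, Angptl4 and Fabp4 have none there, so they were not searched. None of the 9 windows holds the PPAR element or the cAMP element, which occur in 0.341% and 1.55% of all promoters.

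**Figure D1:**
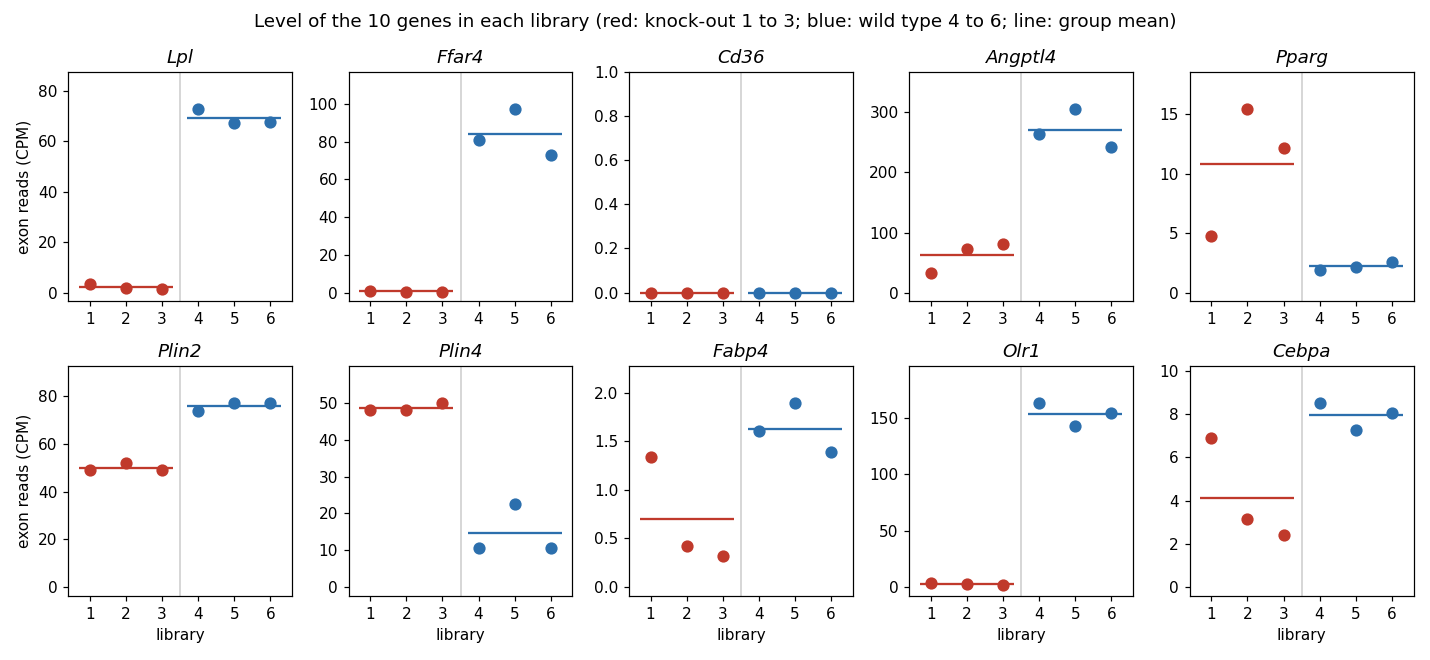
Level of each of the 10 genes in each library, as exon reads scaled to library size (CPM, linear axes from 0); points are libraries, red for knock-out 1 to 3 and blue for wild type 4 to 6, and lines are group means. Lpl, Ffar4 and Olr1 sit near 0 in all 3 knock-out libraries, Pparg and Plin4 are above every wild-type library, and Cd36 is at 0 throughout.

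Lpl and Angptl4, the lipase and its inhibitor, were both lower in the knock-out. Lpl (ENSMUSG00000015568, chromosome 8, 68880491 to 68907448, plus strand, build GRCm38) was counted at 1636, 1632 and 1457 exon reads across the wild type, and at only 80, 41 and 28 across the knock-out. The groups are far apart, and library 1 is the highest of the knock-out libraries. In CPM this was 69.2 ± 3.27 in the wild type and 2.29 ± 1.04 in the knock-out (means ± SD of 3 libraries), or 3.32% of the wild-type mean, a log2 fold change of -4.90 ± 0.31 (SE, edgeR). Reads across exon junctions of Lpl numbered 588, 607 and 550 in the wild type and 14, 15 and 9 in the knock-out, so spliced RNA showed the same difference. Angptl4 (ENSMUSG00000002289, chromosome 17, 33773750 to 33781830, minus strand) had 5921, 7448 and 5233 reads in the wild type and 750, 1538 and 1531 in the knock-out. Its level was 271 ± 32.4 CPM against 62.1 ± 26.1 CPM, which leaves 22.9% in the knock-out (log2 fold change -2.12 ± 0.35). The groups do not overlap, but the knock-out libraries differ among themselves, with 32.5 CPM for library 1 against 72.5 and 81.5 CPM for the others. Lpl and Angptl4 thus differ in how the knock-out libraries are ordered: library 1 is the highest of them for Lpl and the lowest for Angptl4.

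The cell-surface receptors ranged from no reads at all to the largest difference among these genes. Ffar4 (ENSMUSG00000054200, chromosome 19, 38097071 to 38114263, plus strand) had 1817, 2371 and 1574 reads in the wild type and 16, 11 and 10 in the knock-out. That is 83.8 ± 12.5 CPM against 0.581 ± 0.0968 CPM, 144-fold lower in the knock-out, with a log2 fold change of -7.15 ± 0.19. The knock-out libraries gave 0.693, 0.518 and 0.532 CPM, from too few reads to show that their levels are equal. Intron reads moved with exon reads, from 100, 147 and 91 in the wild type to 2, 0 and 1. Olr1 (ENSMUSG00000030162, chromosome 6, 129485244 to 129507165, minus strand) had 3654, 3476 and 3325 reads in the wild type and 79, 65 and 35 in the knock-out. Its level was 153 ± 10.03 CPM against 2.78 ± 0.816 CPM, 55.1-fold lower (log2 fold change -5.77 ± 0.24), and its intron reads were 131, 156 and 119 against 2, 1 and 1. For both receptors the lower exon count came with fewer reads from unspliced RNA. Cd36 (ENSMUSG00000002944, chromosome 5, 17781690 to 17888801, minus strand), the fatty acid translocase, had 0 exon, 0 junction and 0 intron reads in all 6 libraries. A count of 0 allows up to 3 reads, or 0.123 to 0.160 CPM per library, so no level or difference of Cd36 was detectable at this depth. These limits, and the intervals given for ratios of reads, cover counting error only.

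Fabp4 (ENSMUSG00000062515, chromosome 3, 10204088 to 10208576, minus strand), the fatty acid carrier of adipocytes and macrophages, was scarce in both genotypes, with 36, 46 and 30 reads in the wild type and 31, 9 and 6 in the knock-out. Its level was 1.63 ± 0.251 CPM and 0.695 ± 0.563 CPM, a log2 fold change of -1.21 ± 0.58. Knock-out library 1, at 1.34 CPM, lies just under the lowest wild-type library, at 1.39 CPM, and its raw count exceeds that library's, so the groups are barely separated. Without knock-out library 1 the log2 fold change of Fabp4 was -2.12.

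The droplet coat proteins went opposite ways. Plin2 (ENSMUSG00000028494, chromosome 4, 86648386 to 86670060, minus strand), the coat protein found on droplets in most cell types, had 1653, 1878 and 1664 reads in the wild type and 1135, 1102 and 925 in the knock-out. This was 76.0 ± 1.99 CPM against 50.1 ± 1.60 CPM, a log2 fold change of -0.60 ± 0.06, small but with little spread in either genotype. Plin4 (ENSMUSG00000002831, chromosome 17, 56100591 to 56109803, minus strand), a perilipin best known from adipocytes, had 237, 547 and 229 reads in the wild type and 1114, 1019 and 939 in the knock-out. Its level was 14.6 ± 6.87 CPM against 48.7 ± 1.06 CPM, 3.35-fold higher (log2 fold change 1.74 ± 0.32). The knock-out libraries were nearly equal, and the spread lay in the wild type, where library 5 had 22.5 CPM and the other two 10.6 CPM each; without library 5 the log2 fold change was 2.20. Plin4 overlaps Hdgfl2, on the opposite strand, and how strand was handled in counting is not given in the sources used here. Hdgfl2 had 4487 reads over the wild-type and 5276 over the knock-out libraries, and junction reads of Plin4 itself numbered 28, 57 and 27 against 121, 142 and 104.

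The transcription factors also parted. Pparg (ENSMUSG00000000440, chromosome 6, 115360951 to 115490399, plus strand) had 42, 52 and 56 reads in the wild type and 109, 328 and 229 in the knock-out. Its level was 2.20 ± 0.365 CPM against 10.8 ± 5.51 CPM, 4.90-fold higher, with a log2 fold change of 2.29 ± 0.46. Every knock-out library was above every wild-type library, but library 1, at 4.72 CPM, stood well under the 15.5 and 12.2 CPM of the others. Junction reads of Pparg numbered 18, 28 and 31 in the wild type and 56, 171 and 130 in the knock-out. Cebpa (ENSMUSG00000034957, chromosome 7, 35119293 to 35121928, plus strand) had 191, 177 and 174 reads in the wild type and 159, 67 and 45 in the knock-out, or 7.95 ± 0.627 CPM against 4.14 ± 2.40 CPM (log2 fold change -0.94 ± 0.41). Here too library 1, at 6.88 CPM, lay next to the wild-type minimum of 7.28 CPM, and without it the log2 fold change was -1.52. In the knock-out cells, then, more RNA of Pparg and Plin4 was measured together with less RNA of Lpl, Angptl4, Ffar4, Olr1 and Plin2. Whether these differences are linked was not tested.

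Over all 10 genes, 9 had enough reads to enter the fit across the transcriptome and Cd36 did not. At an adjusted p under 0.05 (edgeR quasi-likelihood test), 2 of the 9 were called higher in the knock-out and 5 lower, where 27.8% of all 12660 tested genes were called, 14.1% higher and 13.7% lower. The 2 not called were Fabp4 and Cebpa. The CPM values of the genotypes did not overlap for any of the 9, as for 49.7% of tested genes (25.5% lower and 24.3% higher in the knock-out). Since the genes were chosen on this comparison, these counts describe the choice. All exon reads of the 9 genes were counted as unique.

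**Figure D2:**
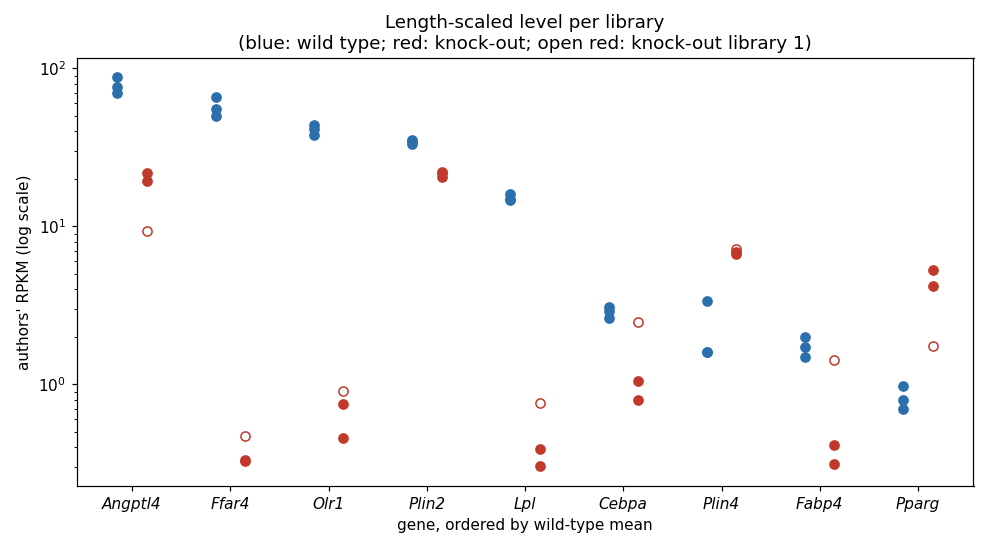
Length-scaled level (the authors' RPKM, log axis) of the 9 detected genes in each library, ordered by the wild-type mean; blue points are wild-type libraries, red points knock-out libraries, and the open red point is knock-out library 1. Ffar4 is second in the wild type and last of the 9 in the knock-out.

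Levels of different genes can be compared only per length, for which the authors' RPKM was used. In the wild type the order of mean RPKM was Angptl4 (78.1 ± 8.82), Ffar4 (57.0 ± 8.12), Olr1 (41.0 ± 2.92), Plin2 (34.4 ± 0.820), Lpl (15.2 ± 0.777), Cebpa (2.88 ± 0.244), Plin4 (2.18 ± 1.01), Fabp4 (1.73 ± 0.256) and Pparg (0.821 ± 0.138), with Cd36 at 0 (mean ± SD, n = 3). Neighbours in this order did not overlap, with the exception of Cebpa with Plin4 and Plin4 with Fabp4. In the knock-out the order was Plin2 (21.4 ± 0.859), Angptl4 (16.7 ± 6.51), Plin4 (6.93 ± 0.295), Pparg (3.75 ± 1.81), Cebpa (1.45 ± 0.910), Fabp4 (0.718 ± 0.615), Olr1 (0.708 ± 0.230), Lpl (0.485 ± 0.243) and Ffar4 (0.376 ± 0.0818). Plin2 and Angptl4 overlapped there, and so did every pair of neighbours from Pparg down to Ffar4. Plin2 therefore moved from the fourth place to the first, while Ffar4 moved from the second to the ninth.

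**Figure D3:**
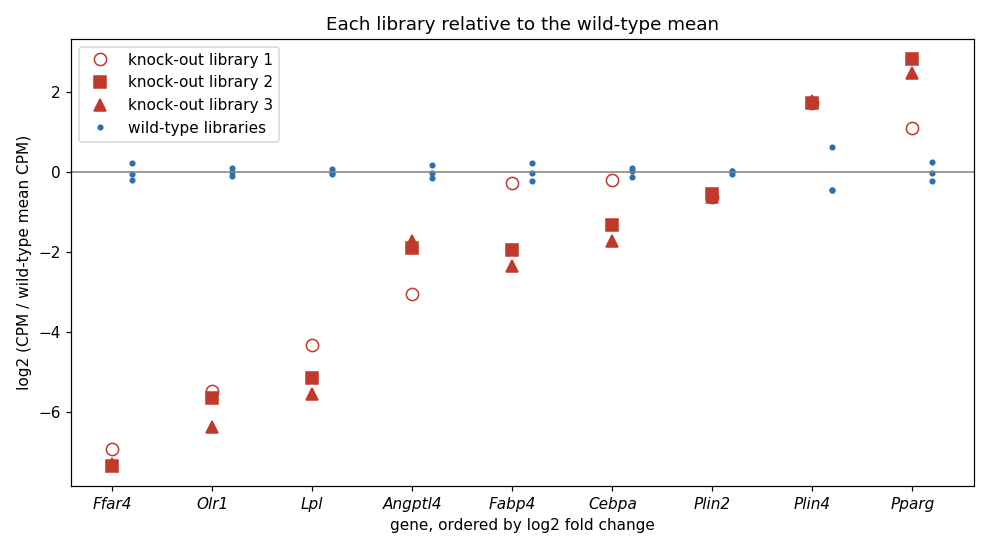
Each library relative to the wild-type mean, as log2 of the CPM ratio, for the 9 detected genes; red symbols are the 3 knock-out libraries (open circle: library 1) and small blue points the wild-type libraries. Knock-out libraries coincide for Plin2 and Plin4, while library 1 lies apart for Lpl, Angptl4, Fabp4, Cebpa and Pparg.

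Knock-out library 1 parted from libraries 2 and 3 in some of these genes and not in others. Pparg was lower in library 1, by a ratio of 3.28 to library 2 (95% exact counting interval 2.63 to 4.11) and 2.58 to library 3 (2.05 to 3.27). Angptl4 was lower as well, by a ratio of 2.23 (2.04 to 2.44) and 2.51 (2.30 to 2.74). The opposite held for Cebpa, which was 2.18 times higher in library 1 than in library 2 (1.63 to 2.94) and 2.87 times higher than in library 3 (2.05 to 4.10), and for Fabp4, at 3.16 times (1.47 to 7.55) and 4.20 times (1.73 to 12.3). Lpl was higher in library 1 by 1.79 times (1.22 to 2.68) and 2.32 times (1.49 to 3.71). Olr1 was 1.84 times higher in library 1 than in library 3 (1.22 to 2.82), while its ratio to library 2 was 1.12 (0.794 to 1.57). For Ffar4 and Plin2 the intervals of both ratios include 1, as they do for Plin4, whose ratios were 1.00 (0.921 to 1.09) and 0.965 (0.884 to 1.05). These are comparisons of single libraries, with no replicate of library 1. For Ffar4, Olr1 and Lpl the difference from the wild type remained large in every knock-out library, whereas for Fabp4 and Cebpa it lay mostly in libraries 2 and 3.

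The genes with the most similar pattern were sought among the 12660 tested genes by the root mean square difference of log2 CPM, each gene centred on its own mean over the 6 libraries. Nearest to Pparg were Nfatc1 (0.13), a transcription factor activated through calcineurin, Tbc1d4 (0.14), a Rab GTPase-activating protein of glucose transport, and Pag1 (0.15), a membrane adaptor protein. Tbc1d4 stood at 4.80, 16.6 and 13.9 CPM over the knock-out libraries, and at 2.10, 2.55 and 2.27 CPM over the wild-type ones. The nearest gene to Lpl was Cgn (0.10), the tight junction protein cingulin, and the nearest to Angptl4 was Cdh1 (0.14), E-cadherin. Shisa3 was nearest to Ffar4 (0.17), As3mt to Olr1 (0.27), Slc9a9 to Plin4 (0.15), Ssu72 to Plin2 (0.02), Etv4 to Fabp4 (0.09) and Nudt14 to Cebpa (0.08). Shisa3 was at 0 CPM in every knock-out library and As3mt at 0.213 to 0.330 CPM. Their log2 values there depend on the prior count of 2, which limits what these 2 matches show. Among the 9 genes themselves, Fabp4 and Cebpa were the closest pair (0.25), followed by Lpl and Olr1 (0.46). No nearest gene of a member was another member, since Olr1 ranked 42 among the genes near Lpl and Lpl ranked 23 among those near Olr1.

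To set these genes in their pathway, 7 lists of other lipid genes, 176 in all, were drawn up from textbook knowledge. Earlier results of these data were known by then, so the shares called in these lists are not independent of the data. Of the 175 found in the table, 125 were tested, and 22 rose and 19 fell in the knock-out (32.8% called, against 27.8% of all tested genes). Their median log2 fold change was 0.04, beside 0.02 over all tested genes. With total counts in place of TMM scaling the split was 17 rises and 20 falls, and that of all called genes moved from 50.7% to 40.1% higher. Without knock-out library 1 the counts were 46 and 44, against 66.2% of all genes called (32.6% higher, 33.7% lower), and all 41 calls of the full set were among them in the same direction. The nearly identical libraries were also summed, knock-out 2 with 3 and wild type 4 with 6, which leaves 2 samples a genotype. In that setting edgeR called 0 of 129 (29 at an unadjusted p under 0.05) and 17 of 13041 genes in all (0.13%, with 0.023% higher and 0.107% lower). It also called 2 of the 10 genes above, Ffar4 and Olr1. Since the 10 genes were chosen on this comparison, these 2 calls describe the choice.

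**Figure D4:**
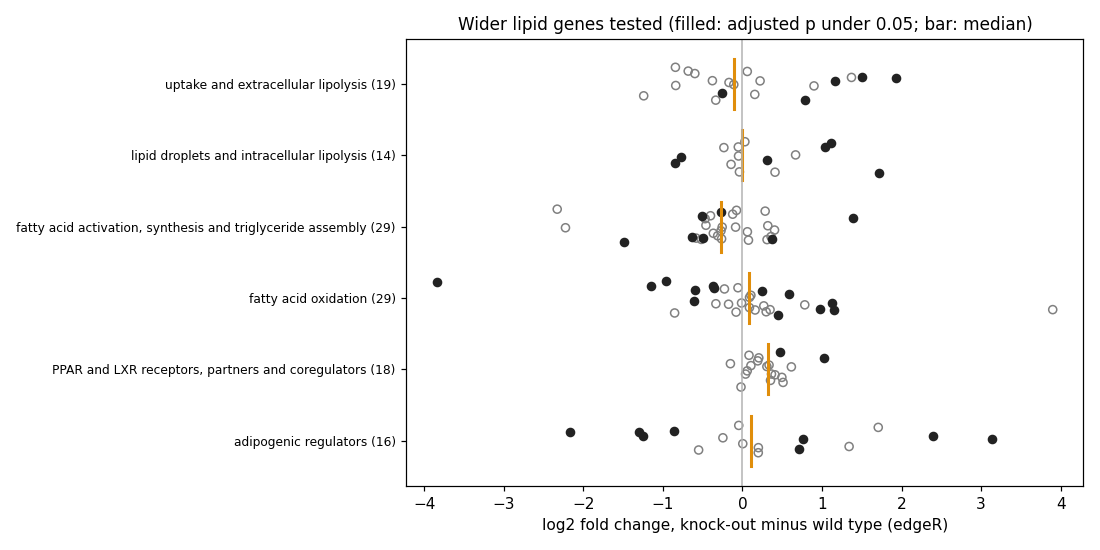
Log2 fold change (knock-out minus wild type, edgeR) of the 125 tested genes of the wider lipid lists, 1 point per gene with the number tested in parentheses; filled points have an adjusted p under 0.05 and orange bars are list medians. Rises and falls occur in every list with tested genes but the PPAR and LXR list, where the 2 calls are rises.

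Among genes of lipid uptake and lipolysis outside the cell, 4 of the 19 tested rose and 1 fell, with a median log2 fold change of -0.11 (26.3% called, against 27.8% of all tested genes). Cav1, the caveolar coat protein, rose from 134 ± 22.0 to 381 ± 42.5 CPM (log2 fold change 1.51 ± 0.15, edgeR adjusted p = 0.00262). Lmf2 (0.79 ± 0.07, 0.00193), a relative of the lipase maturation factor, and Lrp1 (1.16 ± 0.25, 0.0214), an endocytic receptor of lipoprotein remnants, also rose, with parentheses here and below holding log2 fold change ± SE, then edgeR's adjusted p. Slc27a4, a fatty acid transport protein, fell slightly (-0.26 ± 0.07, 0.0390). Fabp5, the epidermal relative of Fabp4, was named after its values were seen: it rose from 36.3 ± 16.1 CPM to 74.2, 167 and 173 CPM (1.93 ± 0.48, 0.0332). Gpihbp1, which anchors lipoprotein lipase on endothelium, had 0 reads in every library. The calls of Lrp1, Slc27a4 and Fabp5 were each lost on leaving out any 1 library other than knock-out 1 (edgeR adjusted p up to 0.0934, 0.141 and 0.0980), and that of Slc27a4 also with no filter on low counts.

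The other receptors for fatty acids and related metabolites were nearly silent. None of the 7 listed, including Ffar1, Ffar2 and Ffar3, had enough reads to be tested, and 5 had 0 reads in all libraries. The most abundant was the lactate receptor Hcar1, with 0.205 ± 0.212 CPM for the wild type and 0.126 ± 0.136 CPM for the knock-out.

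Of the genes of lipid droplets and lipolysis inside the cell, 4 of 14 rose and 2 fell, with a median of -0.00 (42.9% called, against 27.8% of all tested genes). Lipa, the lysosomal acid lipase, rose from 130 ± 8.82 to 281 ± 17.4 CPM (1.12 ± 0.09, 0.00131). Mgll, which cleaves monoacylglycerol, also rose (1.04 ± 0.11, 0.00262). Lipe, hormone-sensitive lipase, fell from 24.7 ± 0.0519 to 14.5 ± 2.57 CPM (-0.77 ± 0.15, 0.0153), and Abhd5, the activator of adipose triglyceride lipase, fell from 69.2 ± 10.2 to 38.4 ± 8.59 CPM (-0.85 ± 0.19, 0.0228). Of the other perilipins, chosen after their values were seen, Plin3 was at 177 ± 16.0 and 171 ± 30.5 CPM in wild type and knock-out and did not pass (-0.05 ± 0.15, 0.809), Plin5 had 3 reads in all and Plin1 had 0. Lipe was no longer called without knock-out library 2 or any wild-type library (edgeR adjusted p up to 0.0690), and Abhd5 without any of these or knock-out library 3 (up to 0.0819).

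Among genes of fatty acid activation, synthesis and triglyceride assembly, 2 of 29 rose and 5 fell, with a median of -0.27, and the 24.1% called is below the 27.8% of all tested genes. Lpin1, a phosphatidate phosphatase, rose from 26.3 ± 1.83 to 69.0 ± 7.96 CPM (1.39 ± 0.11, 0.00134), and Agpat2, an acyltransferase, rose a little (0.37 ± 0.08, 0.0216). Acsl4, which activates arachidonic acid, fell from 102 ± 11.2 to 36.0 ± 6.81 CPM (-1.50 ± 0.16, 0.00303), and Acaca, acetyl-CoA carboxylase, fell (-0.49 ± 0.07, 0.00727). Scd2, a fatty acid desaturase and the most abundant gene of the list, fell from 921 ± 178 to 594 ± 53.0 CPM (-0.63 ± 0.16, 0.0332). The calls of Agpat2 and Scd2 were each lost on leaving out any 1 library other than knock-out 1 (edgeR adjusted p up to 0.101 and 0.0915), and that of Agpat2 also with total counts.

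Fatty acid oxidation changed in both directions, with 6 of 29 higher and 7 lower and a median of 0.09 (44.8% called, against 27.8% of all tested genes). Pdk4, a kinase that restrains pyruvate oxidation and responds to PPARs in muscle, rose from 8.98 ± 1.14 to 19.9 ± 3.30 CPM (1.15 ± 0.17, 0.0071), and Acacb, the mitochondrial acetyl-CoA carboxylase, rose (1.12 ± 0.19, 0.0112). Ucp2, a mitochondrial carrier, fell from 6.64 ± 0.559 to 0.458 ± 0.338 CPM (-3.84 ± 0.51, 0.00541), and Cpt2, of the carnitine shuttle, fell (-0.60 ± 0.09, 0.00848). Cpt1a, the most abundant of the list, was at 241 ± 2.08 and 290 ± 33.7 CPM and did not pass (0.27 ± 0.10, 0.101). Acacb was no longer called without library 4 or 6 of the wild type (edgeR adjusted p at most 0.0611), nor Cpt2 without wild-type library 4 (0.0539).

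Partners and coregulators of the PPAR and LXR receptors showed 2 rises and 0 falls among 18 tested, with a median of 0.32; the 11.1% called is below the 27.8% of all tested genes. Rxra, the DNA-binding partner of PPAR-gamma, rose from 108 ± 2.76 to 150 ± 16.8 CPM (0.48 ± 0.10, 0.0192), and Sirt1, a deacetylase, rose from 22.5 ± 0.816 to 45.9 ± 11.7 CPM (1.03 ± 0.20, 0.0161). Ncor1, a corepressor and the most abundant gene of the list, did not pass (0.36 ± 0.17, 0.159). The related receptors, named after their values were seen, did not pass either: Ppard was at 40.6 ± 1.83 and 43.7 ± 4.82 CPM (0.11 ± 0.10, 0.452) and Ppara at 1.54 ± 0.0735 and 1.77 ± 1.37 CPM (0.21 ± 0.56, 0.804). Ppara stood at 3.33 CPM in knock-out library 1, above every wild-type library, and at 0.801 and 1.17 CPM in libraries 2 and 3, below every one. The calls of Rxra and Sirt1 were each lost on leaving out any 1 library other than knock-out 1 (edgeR adjusted p up to 0.0910 and 0.0750), and without knock-out library 1 the list counted 11 rises and 0 falls among 19 tested (57.9% called, where 66.2% of all genes were called).

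Among regulators of adipocyte differentiation, 4 of the 16 tested rose and 4 fell (median 0.10, with 50% called against 27.8% of all tested genes). Dlk1, a membrane protein that holds back adipogenesis, rose from 2.46 ± 0.122 CPM to 32.2, 14.6 and 18.1 CPM (3.14 ± 0.33, 0.00302). Rora (0.71 ± 0.10, 0.0060) and Nr3c1, the glucocorticoid receptor (0.76 ± 0.17, 0.0254), rose. Klf2, a factor that represses Pparg in preadipocytes, fell from 62.6 ± 3.91 to 13.9 ± 2.28 CPM (-2.17 ± 0.14, 0.000749). Of the relatives of Cebpa, Cebpd fell from 254 ± 22.4 to 103 ± 32.4 CPM (-1.30 ± 0.23, 0.0117). Cebpb, named after its values were seen, fell from 120 ± 6.44 to 66.0 ± 16.0 CPM (-0.86 ± 0.18, 0.0188). Cebpg, likewise named after its values were seen, was at 52.7 ± 2.80 and 51.1 ± 6.60 CPM in wild type and knock-out and did not pass (-0.05 ± 0.11, 0.778). Cebpd was no longer called without knock-out library 2 or library 4 of the wild type (edgeR adjusted p at most 0.0572), nor were Nr3c1 and Cebpb without any 1 library other than knock-out 1 (up to 0.0939 and 0.0724).

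**Figure D5:**
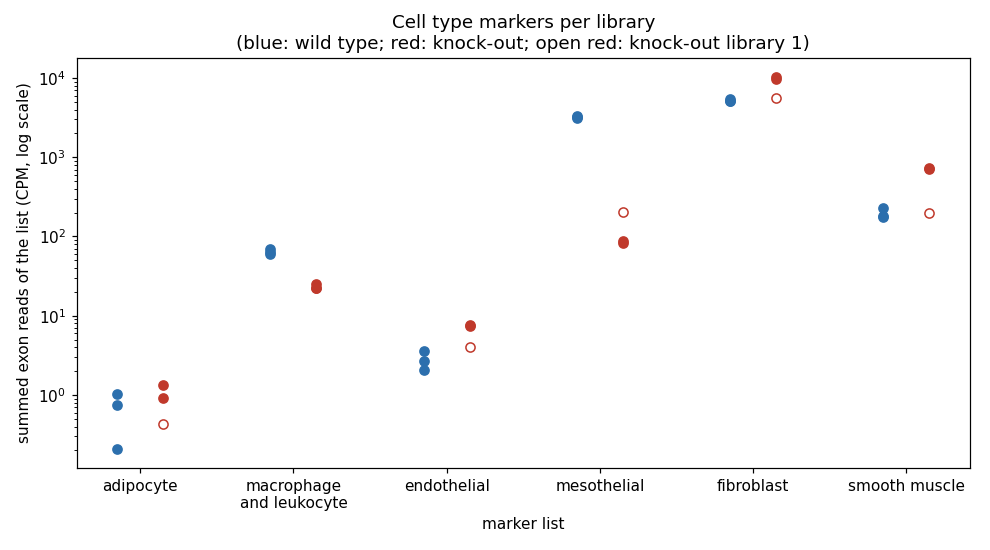
Summed exon reads of 6 lists of cell type markers in each library (CPM, log axis); blue points are wild-type libraries, red points knock-out libraries, and the open red point is knock-out library 1. The mesothelial sum is 3131 to 3327 CPM in the wild type and 82.9 to 204 CPM in the knock-out.

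Several of the lipid genes are known from adipocytes, macrophages, endothelium or mesothelium, and in bulk RNA fewer cells of a type cannot be told apart from less RNA per cell, so markers of these cells were measured beside them. Adipocyte markers were nearly absent: all 13 were under 1 CPM in every library, their sum was 0.206 to 1.02 CPM in the wild type and 0.433 to 1.32 CPM in the knock-out, and Adipoq, Cfd, Plin1 and Cidec had 0 reads. The most abundant adipocyte markers were Adrb3, at 0.320 ± 0.303 and 0.599 ± 0.365 CPM in wild type and knock-out, and Aoc3, at 0.195 ± 0.139 and 0.144 ± 0.015 CPM. Macrophage and leukocyte markers were at 0 for 8 of 16, namely Ptprc, Adgre1, Itgam, C1qa, C1qb, C1qc, Cd163 and Tyrobp. Their sum, 60.5 to 70.4 CPM in the wild type and 22.1 to 25.4 CPM in the knock-out, rested mainly on Cd14 and Lyz2. Cd14 led in the wild type and in knock-out library 1 and fell (-2.45 ± 0.27, 0.00341). Lyz2 led in knock-out libraries 2 and 3, with 14.6 and 12.2 CPM, and rose (2.57 ± 0.50, 0.0156). Of the 4 tested markers of this list, 1 was called higher and 2 lower (75%, against 27.8% of all tested genes). The other fall was Cd68, named after its values were seen, from 3.00 ± 0.447 to 0.589 ± 0.208 CPM (-2.33 ± 0.34, 0.00704). Endothelial markers summed to 2.04 to 3.62 CPM and 4.03 to 7.71 CPM, with 0 reads for Tie1, Cldn5, Sox17 and Gpihbp1, and their most abundant genes were Kdr, which rose (3.17 ± 0.59, 0.0138), and Egfl7, which did not pass (0.49 ± 0.70, 0.63). The calls of Lyz2 and Kdr ended without some single libraries (edgeR adjusted p up to 0.0728 and 0.0674), wild-type libraries 5 and 6 for both and knock-out libraries 2 and 3 for Lyz2.

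Mesothelial markers moved with the genotype in the direction of Lpl, Ffar4, Olr1 and Angptl4. All 11 were higher in every wild-type library than in any knock-out library, as were 25.5% of all tested genes. Of the 10 tested, 10 were called lower, against 13.7% of all tested genes. The marker lists, too, were chosen with earlier results of these data known. The sum of the list was 3131 to 3327 CPM in the wild type against 204, 88.6 and 82.9 CPM over knock-out libraries 1 to 3. Lrrn4 fell from 648 ± 41.3 to 26.1 ± 22.5 CPM (-4.63 ± 0.65, 0.00635), and Msln, mesothelin, from 786 ± 18.7 CPM to 44.0, 0.990 and 1.38 CPM (-5.66 ± 1.57, 0.0437). Without knock-out library 1 the log2 fold change of Msln was -9.38, and its call ended without any other single library (edgeR adjusted p up to 0.114). The part of mesothelial RNA in the lipid gene differences was not tested. Fibroblast markers had 2 of 11 called higher and 0 lower (18.2%, against 27.8% of all tested genes). They summed to 5110 to 5363 CPM in the wild type and 5648, 9603 and 10401 CPM in the knock-out. Dcn (0.08 ± 0.12, 0.618) and Col1a2 (1.22 ± 0.43, 0.0853) were the most abundant. Smooth muscle markers had 1 of 7 called higher and 1 lower (28.6%). They summed to 178 to 229 CPM in the wild type and to 733 and 711 CPM for knock-out libraries 2 and 3, with library 1 inside the wild-type range. Acta2 led them without passing (2.36 ± 0.75, 0.0633), and Smtn rose (0.55 ± 0.13, 0.0296), a call that ended without any single library but knock-out 1 (edgeR adjusted p up to 0.119). Fibroblast and smooth muscle sums of knock-out library 1 lay close to the wild type, as did its Cebpa and Fabp4, and whether these are linked was not tested.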

How the data were processed

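Poly(A)-selected RNA of 3 Nt5e knock-out and 3 wild-type libraries was analysed from 1 deposited table, which holds whole-number read counts per gene and library made by the authors (exon, unique exon, exon junction and intron reads) and the authors' deposited RPKM, which scales reads by exon length and depth. Per the submitters' processing notes the genome is GRCm38 (mm10). For aligner, counting tool and strand handling, nothing is given in the sources used here. Groups come from the labels.

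The test of exon read counts was that of edgeR 4.0.16 under R 4.3.3 (filterByExpr with a minimum count of 10, TMM scaling, quasi-likelihood F test on genotype alone, all 6 libraries, Benjamini-Hochberg over 12660 genes at 0.05). CPM use the TMM-scaled library size (prior count 2 on the log2 scale). SEs of log2 fold changes were derived from F. The script was checked on simulated counts. RPKM served only to order levels.

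The 10 genes and all lists were chosen with earlier results of these data known. Named list genes are the most abundant of each list and up to 2 rises and 2 falls of smallest adjusted p, and for marker lists the 2 most abundant and those at 0; others are said to be named after their values were seen. 1 listed gene is not analysed here. Alternatives, 15 in all, were DESeq2 1.42.0, limma-voom (limma 3.58.1), other scalings, filters and read counts, summed libraries, a title number as covariate and leaving out each library. Plots used matplotlib 3.10.9 in Python 3.11.15.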

Additional observations from a re-analysis of the deposited data

How the results depend on the processing

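Of 134 values of the 9 detected genes under 15 alternatives, 0 changed sign and 129 moved by less than the spread between replicates. The ranges of their log2 fold changes were -7.31 to -7.03 for Ffar4, -5.95 to -5.56 for Olr1, -5.33 to -4.67 for Lpl, -2.37 to -1.82 for Angptl4, -2.12 to -0.87 for Fabp4, -1.52 to -0.66 for Cebpa, -0.70 to -0.59 for Plin2, 1.55 to 2.20 for Plin4 and 1.94 to 2.64 for Pparg. The 22 rises and 19 falls among the wider lipid genes became 9 to 46 and 4 to 44 when single libraries were left out, and 0 and 0 with the nearly identical pairs summed, which leaves 2 samples a genotype. All called genes, 3524, became 1120 to 8486 and 17 in the same settings, the most without knock-out library 1. Of 32 named list genes called, leaving aside Cd68, 14 stayed called whichever library was left out and 0 with pairs summed. The log2 fold change took both signs for Dcn (-0.0081 with total counts, and -0.011 to 0.13 when single libraries were left out), Egfl7 (-0.15 to 0.91 likewise), Plin3 (-0.22 to 0.023 likewise) and Ppara (-0.026 in limma-voom, -0.032 with the title number as covariate, -0.65 to 0.55 when single libraries were left out), where the cause was not tested. The -0.65 of Ppara was the value without knock-out library 1. No paired analysis was possible because the labels number the samples 1 to 6, with no number shared by the genotypes. The title number, shared by libraries 1 and 5 and by libraries 2, 3, 4 and 6, was used as a covariate instead: 31 wider lipid genes rose and 24 fell, and over all genes 2230 rose and 2280 fell. Depth limits Cd36, at 0 reads, and Fabp4.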
